A study of Danio rerio with 24 samples.

Results

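U1 and U2 are the small nuclear RNAs (snRNAs) with which the spliceosome first recognises an intron. U1 base-pairs with the 5′ splice site and U2 with the branch point, each within a ribonucleoprotein particle (snRNP). Both are made by RNA polymerase II, cut at their 3′ end by the Integrator complex without receiving a poly(A) tail, wrapped in the cytoplasm by a ring of Sm proteins that the SMN complex loads, and returned to the nucleus. Vertebrate genomes hold many near-identical copies of both genes. The loci described here are all rows of the abundance table named after the Rfam families of U1 (RF00003) or U2 (RF00004), whatever their values: 193 of 32521 rows, of which 182 were U1 and 11 were U2. The table of gene names calls the same 182 identifiers U1, 10 of the others U2 and the remaining one, ENSDARG00000117035, rnu2.

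The values come from whole zebrafish embryos labelled 6 hours, in 24 libraries of 12 groups, with 2 libraries labelled as biological replicates in each. Embryos were injected at the 1-cell stage, except in the uninjected group. The series tested knock-down by RfxCas13d (Cas13d below), an RNA-guided nuclease that cuts RNA and leaves the genome unchanged. The first set of 6 groups used transgenic embryos that received RFP from the mother: uninjected embryos, embryos given Cas13d mRNA at 200 to 250 pg, and the same mRNA with nanog guides, with rfp guides, with a reporter, or with that reporter and dnd guides. The reporter was 40 pg of gfp mRNA ending in the nanos 3′ untranslated region, and guides were given at 500 to 600 pg. No transgene is stated for the 6 groups of the second set. In 2 of them Cas13d mRNA was injected, without guides or with szrd1 guides, and in 4 Cas13d protein (3 ng): with nothing else, with szrd1 guides, with the reporter, or with the reporter plus dnd1 guides. For library 2 of this last group the label leaves the amount of protein unclear. The labels do not say how many embryos were pooled in a library. With 2 libraries a group, the p-values measure only the spread between replicate libraries, pooled over the 6 groups of a set and moderated across rows.

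The libraries were selected for poly(A) RNA, which U1 and U2 lack, so a level here is what passed that selection and not the amount in the embryo. Levels are in TPM, a length-scaled abundance that sums to the same total in every library, so the depth of each library is unknown and a value also moves with every other RNA in the library. Replicates had Pearson correlations of 0.976 to 0.991 on the log2 scale over all tested rows. The targeted genes went with the labels: nanog was at 33.6 and 44.5 TPM with nanog guides against 324 and 253 with Cas13d mRNA alone, szrd1 at 36.3 to 71.9 in the 4 libraries with szrd1 guides against 260.5 to 425 in their controls, and dnd1 at 0.79 to 1.35 in the 4 libraries with dnd or dnd1 guides against 6.88 to 12.1. RFP was at 366 and 205 TPM with rfp guides and 1117 to 1575 in the other first-set libraries. In the second set, RFP was at most 0.18 TPM in 10 libraries but 18.5 and 27.1 TPM in the 2 labelled as protein, reporter and dnd1 guides. The nanos3 row, whose sequence the reporter shares, was at 1203 to 1646 TPM in the 4 first-set libraries with reporter and 51.8 to 87.6 TPM in the other 8. In the second set it was at 121 and 160 TPM in the libraries labelled with reporter and dnd1 guides, but at 21.3 and 20.7 TPM in those labelled protein with reporter, within the 15.3 to 35.8 TPM of the 8 libraries without reporter. The nanos3 level of the protein with reporter libraries thus goes against their label, and both comparisons that use them are given as comparisons of labelled libraries. Library 1 of the nanog guides stood apart, with 23.2% of its TPM in 5 repeat-like loci, against 0.158 to 6.73% in the other 23 libraries.

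Many of the loci had no signal. Of the U1 rows, 55 of 182 were listed at 0 in every library, as were 2 of the 11 U2 rows. Rows with the same value in all 24 libraries were counted as one: 9 U1 profiles stood for 19 rows and 1 U2 profile for 2 rows. This left 117 U1 and 8 U2 distinct profiles above 0. The median of the profiles' mean levels was 0.88 TPM for U1 and 2.15 TPM for U2, and 19 U1 and 3 U2 profiles averaged over 5 TPM. Only 3 U1 profiles (ENSDARG00000110891, ENSDARG00000116816 and one shared by ENSDARG00000113020 and ENSDARG00000115874) and 2 U2 profiles (ENSDARG00000082734 and ENSDARG00000113972) were above 0 in every library.

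The U1 level was spread over many loci, while the U2 level came largely from one. The 3 U1 rows with the highest means, ENSDARG00000115441, ENSDARG00000103784 and ENSDARG00000110891, together held 18.0 to 26.7% of the summed U1 level in first-set libraries and 13.9 to 49.2% in second-set libraries. The leading U1 row, ENSDARG00000115441, averaged 24.7 TPM over the 24 libraries. The leading U2 row, ENSDARG00000082734, averaged 481 TPM and held 61.1 to 89.2% of summed U2 in the first set. In the second set it held 72.3 to 93.9%, except for 31.4% in library 1 of Cas13d protein. Next among U2 loci were ENSDARG00000111709 and ENSDARG00000115186, identical in every library and averaging 64.2 TPM each, and ENSDARG00000113972, averaging 26.6 TPM.

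**Figure D1:**
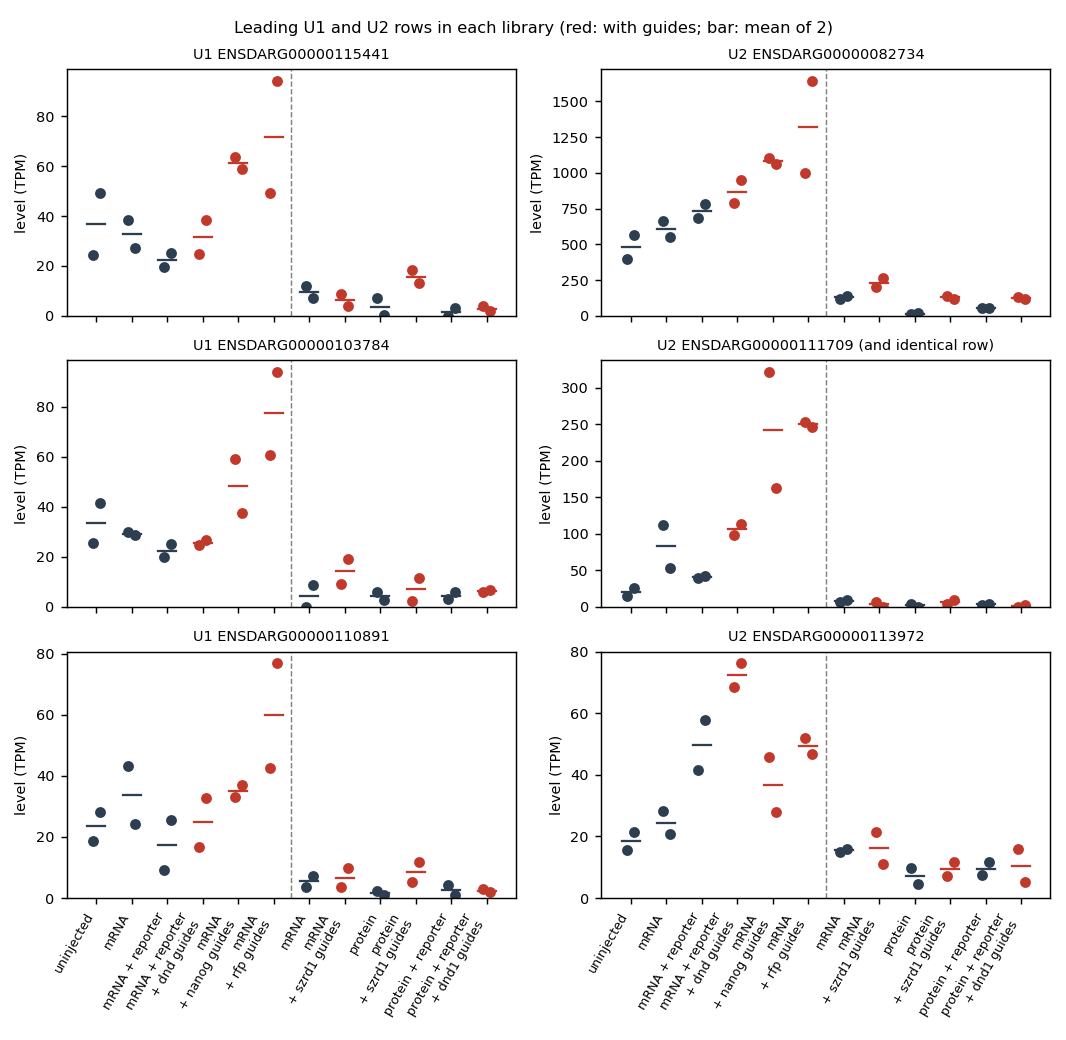
Levels in TPM of the 3 leading U1 profiles (left) and the 3 leading U2 profiles (right) in each library, by group. Points are libraries, bars are means of 2, red marks groups with guides, and the dashed line separates the sets; the panels have different linear axes starting at 0, and ENSDARG00000082734 reaches 263 TPM in the second set against 397 to 1642 TPM in the first.

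Within U2, the second highest level belonged to a pair of rows whose share varied between first-set groups. The identical rows ENSDARG00000111709 and ENSDARG00000115186 each stood at 14.6 and 26.4 TPM in uninjected embryos. They stood at 112 and 53.6 TPM with Cas13d mRNA, and at 40.1 and 42.6 TPM when the reporter was added. With dnd guides and reporter they were at 98.8 and 113 TPM, with nanog guides at 321.5 and 163 TPM, and with rfp guides at 254 and 247 TPM. Both uninjected libraries lay below all other first-set libraries, and all 4 libraries with nanog or rfp guides lay above the remaining 8. As a share of summed U2, the 2 rows held 6.58 and 8.19% in uninjected embryos, 24.4 and 15.6% with Cas13d mRNA, 9.83 and 9.12% with the reporter added, 18.5 and 17.9% with reporter and dnd guides, 35.7 and 23.0% with nanog guides and 32.5 and 22.4% with rfp guides. In the second set each of the 2 rows was at 0 to 9.12 TPM in all 12 libraries, and together they held 31.2% of summed U2 in library 1 of Cas13d protein and 0 to 11.8% in the other 11.

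**Figure D2:**
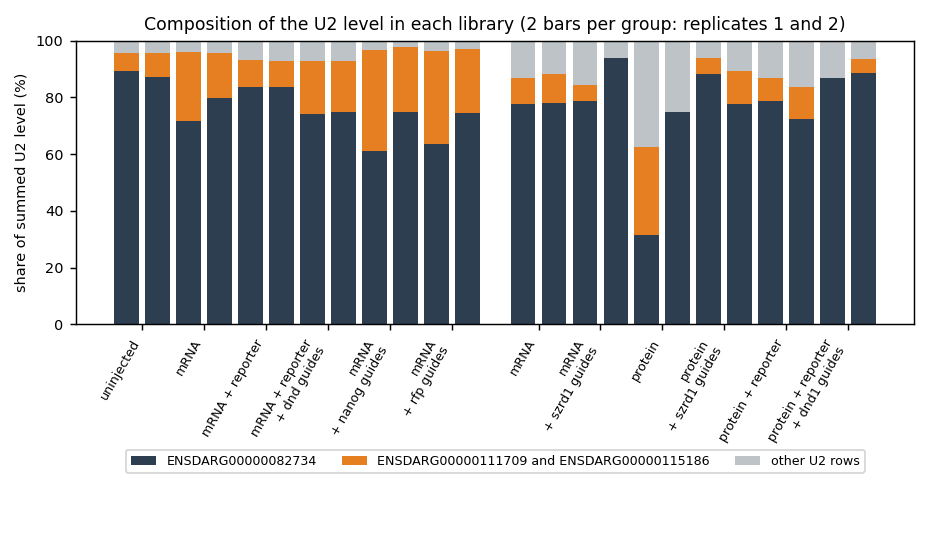
Share of the summed U2 level (percent of TPM over all 11 U2 rows) held in each library by ENSDARG00000082734, by the identical rows ENSDARG00000111709 and ENSDARG00000115186, and by the other U2 rows. Each group has 2 bars, replicates 1 and 2; the middle segment is 6.58 and 8.19% in uninjected embryos and 35.7 and 23.0% with nanog guides.

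Summed over all rows of a family, U1 and U2 were at their lowest with Cas13d protein alone and at their highest with rfp guides. Summed U1 was 31.6 and 24.8 TPM with Cas13d protein, against 752 and 1352 TPM with rfp guides. Summed U2 was 29.8 and 23.3 TPM in the former and 1564 and 2201 TPM in the latter. The second set lay below the first throughout, with summed U1 at 24.8 to 135 TPM against 250.3 to 1352 TPM and summed U2 at 23.3 to 280.1 TPM against 445 to 2201 TPM. Between the Cas13d mRNA groups of both sets, which share the injected material as far as the labels say, the first-set mean was 3.77 times the second for U1 and 4.86 times for U2. Set and transgene cannot be told apart in that difference. Of the U1 profiles, 31 were above 0 in the first set and at 0 in all 12 second-set libraries, with first-set means of at most 6.78 TPM, while 1 was above 0 in the second set only.

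In the order of the 12 group means, neighbours often overlapped. For U1, rfp guides (1052 ± 424 TPM, SD, n = 2) and nanog guides (689 ± 98.0) overlapped, and both lay clear of the next 4, which overlapped in turn: dnd guides with reporter (454 ± 126), uninjected (437 ± 131), Cas13d mRNA (391 ± 36.8) and reporter (311 ± 86.2). In the second set, mRNA with szrd1 guides (126 ± 12.1) lay above protein with szrd1 guides (106 ± 10.5) and Cas13d mRNA (104 ± 14.8), which overlapped. Protein with reporter and dnd1 guides (58.8 ± 5.02) came next, then protein with reporter (36.1 ± 7.30) and protein alone (28.2 ± 4.75), which overlapped. For U2 the first 3 were the same groups, at 1883 ± 450.5, 1611 ± 269 and 1165 ± 140 TPM. They were followed by reporter (875 ± 83.1), Cas13d mRNA (804 ± 167) and uninjected (545 ± 141). The second-set U2 means ran from 268 ± 16.6 TPM for mRNA with szrd1 guides to 26.5 ± 4.62 TPM for protein alone, and there the only overlapping neighbours were Cas13d mRNA (166 ± 13.4) and protein with szrd1 guides (156 ± 1.36).

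**Figure D3:**
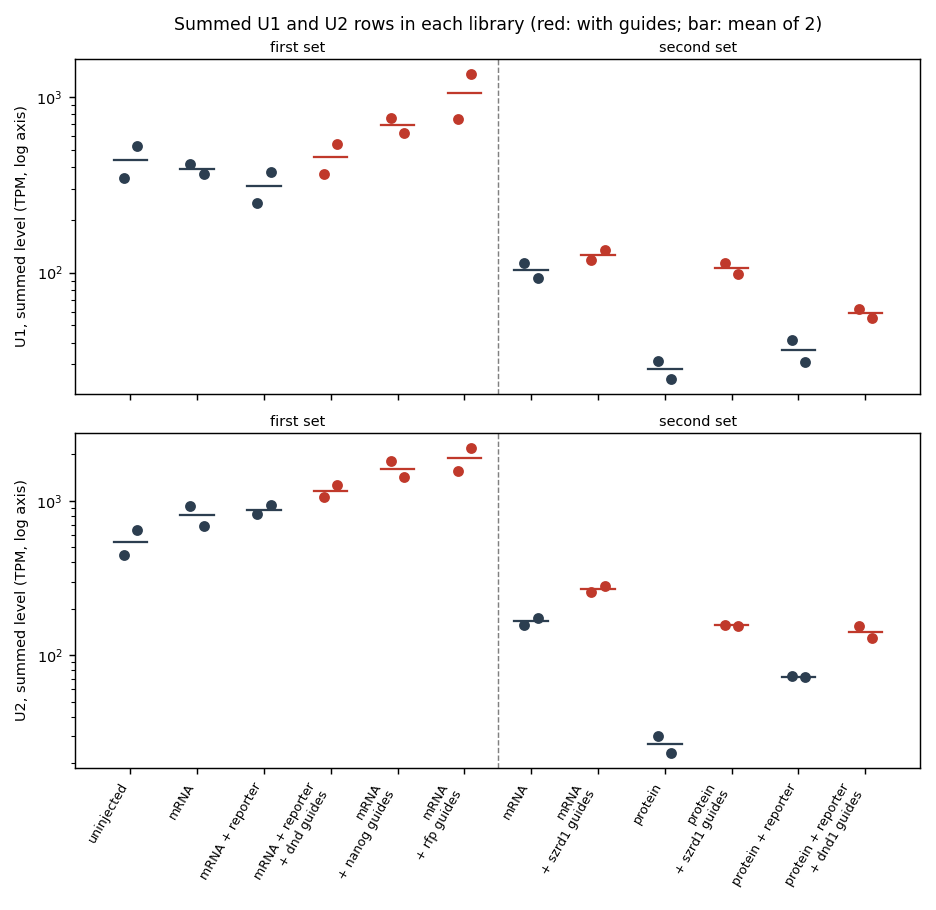
Summed level in TPM, on a log axis, of all U1 rows (top) and all U2 rows (bottom) in each library, by group. Points are libraries, bars are means of 2 and red marks groups with guides; the 2 libraries of Cas13d protein alone are the lowest for U1 (31.6 and 24.8) and U2 (29.8 and 23.3), and library 2 of the rfp guides is the highest for both (1352 and 2201).

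Each group with guides had higher mean summed levels of both families than the group without guides that matched it by label. This was not particular to U1 and U2, since sums of some other structural RNAs, given below, were higher too. The ratio of means for U1 and U2 was 1.76 and 2.0 with nanog guides, 2.69 and 2.34 with rfp guides, and 1.46 and 1.33 with dnd guides. It was 1.22 and 1.62 with szrd1 guides on Cas13d mRNA, 3.75 and 5.87 with szrd1 guides on Cas13d protein, and 1.63 and 1.96 with dnd1 guides on Cas13d protein. The labelled control of the dnd1 guides showed no reporter signal in nanos3. The libraries did not overlap in these comparisons except for U1 with dnd guides, where 366 and 543 TPM stood against 250.3 and 372 TPM. The nanog and rfp comparisons share their control libraries, and the sums were not tested. In whole embryos, fewer cells of a kind and less RNA per cell cannot be told apart.

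Other short structural RNAs, untested as sums, are given beside these values. The mean sums of U4, nuclear RNase P RNA and 5.8S ribosomal RNA rows were likewise higher in each comparison with guides. In that order, the ratios were 2.26, 2.48 and 2.10 with nanog guides and 3.25, 2.69 and 4.05 with rfp guides. With dnd guides they were 1.82, 1.28 and 1.09, and with szrd1 guides on mRNA 1.15, 1.43 and 1.27. They were 8.24, 10.2 and 3.93 with szrd1 guides on protein and 3.77, 2.31 and 1.69 with dnd1 guides. Libraries overlapped in several, and in all with dnd guides. Summed U4 (RF00015) was 46.2 to 144 TPM in the 4 libraries with nanog or rfp guides against 18.2 and 40.3 TPM with Cas13d mRNA. Summed nuclear RNase P RNA (RF00009) was 211 to 285 TPM in the former and 106 and 78.7 TPM in the latter. The 5.8S ribosomal RNA rows (RF00002) summed to 3358 TPM in library 1 of the nanog guides and 6745 TPM in library 2 of the rfp guides, but to 423 and 535 TPM in the other library of each group and to 341 and 1456 TPM in the controls. The 5S ribosomal RNA rows (RF00001) went the other way with rfp guides, at 44.9 and 52.9 TPM against 89.2 and 91.5 TPM, and were at 58.6 and 98.2 TPM with nanog guides. A list of 12 maternal oocyte transcripts (such as zar1, buc, btg4, gdf9 and nanog) was above 0 for 12 of 12 genes in every group. It summed to 1387 to 1580 TPM with rfp guides, 695 to 926 TPM with nanog guides, whose target is on the list, and 743 to 884 TPM with Cas13d mRNA. Nanog made up 598 and 715 TPM of the sum with rfp guides, 33.6 and 44.5 TPM with nanog guides and 324 and 253 TPM with Cas13d mRNA. Against Cas13d mRNA, the median log2 fold change of TPM + 1 over the 12 genes was 0.66 with nanog guides and 1.01 with rfp guides. Over all rows it was -0.05 in both. Of the 12 genes, 9 were higher with nanog guides and 11 with rfp guides, against 45.5% and 46.2% of all rows. A list of zygotic gastrula genes summed to 1326 to 1763 TPM with nanog guides and 2086 to 2571 TPM with rfp guides, against 2493 to 2591 TPM in those controls. Their part in the U1 and U2 levels was not tested.

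Single loci were tested where their row averaged at least 1 TPM within a set, and a profile was called at a limma adjusted p under 0.05 (Benjamini-Hochberg over all rows tested) with a log2 fold change of at least 1 in size, on the scale of log2(TPM + 1). In the first set 67 of 117 U1 and 7 of 8 U2 profiles passed that minimum, in the second 22 U1 and 5 U2. Of those 22 U1 profiles only 19 were distinct within the second set, the others differing only in first-set libraries. Second-set medians and counts below are over all 22 unless stated otherwise, so some equal values enter them more than once. Passing depends on the group with the highest level, so the profiles that passed are not the whole family. The 10 comparisons are not independent: those of Cas13d mRNA with uninjected, nanog, rfp and reporter embryos share the Cas13d mRNA libraries, and the second-set comparisons likewise share the mRNA, the protein or the protein with reporter libraries.

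With rfp guides, 17 U1 profiles and 2 U2 profiles were called higher than with Cas13d mRNA alone and 1 U1 profile was called lower, while 5.99% of all 15253 rows were called, 2.16% higher and 3.83% lower. The median log2 fold change was 1.17 over the 67 tested U1 profiles and 1.0 over the 7 U2 profiles, beside -0.05 over all rows. Higher values were seen for 55 of 67 U1 and 5 of 7 U2 profiles, against 46.2% of all rows. With no filter on low values 1 of the 20 calls remained, and 23 of all rows were called, against 913 with the filter. Calls also fell, among these profiles and over all rows, without library 2 of the rfp guides or without library 2 of Cas13d mRNA.

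Among the leading rows, U2 ENSDARG00000082734 was at 997 and 1642 TPM with rfp guides and at 662 and 548 TPM with Cas13d mRNA. The groups did not overlap, and the log2 fold change was 1.09 (SE 0.22, limma adjusted p = 0.0136). It lost the call with no filter (adjusted p = 0.129), without library 2 of the rfp guides (0.115) and without library 2 of Cas13d mRNA (0.145). The identical U2 rows given above rose by 1.67 (SE 0.35, adjusted p = 0.0139), a call lost under the same 3 settings (0.144, 0.0695 and 0.164). U1 ENSDARG00000103784 was at 60.8 and 93.8 TPM against 29.9 and 28.7 TPM, a log2 fold change of 1.34 (SE 0.27, adjusted p = 0.0127) that was not called under those settings either (0.124, 0.107 and 0.122). The other leading U1 rows, which did not pass, stood at 49.1 and 94.2 TPM (ENSDARG00000115441) and 42.7 and 76.9 TPM (ENSDARG00000110891) with rfp guides, against 38.3 and 27.1 TPM and 43.2 and 24.4 TPM. U2 ENSDARG00000113972 was at 51.9 and 46.7 TPM against 28.2 and 20.7 TPM and fell short of the size needed.

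The largest called rises with rfp guides were of low U1 loci. ENSDARG00000116679 was at 11.2 and 4.65 TPM against 0 and 1.24 TPM, and the difference, 2.47 on the log2 scale (SE 0.60, limma adjusted p = 0.0225), was not called without any one of the 4 libraries (adjusted p of 0.0540 to 0.113) or with no filter (0.189). ENSDARG00000110759 was at 10.3 and 8.89 TPM against 0.75 and 1.36 TPM, a log2 fold change of 2.38 (SE 0.38, adjusted p = 0.00604) that held in every left-out-library fit and not with no filter (0.0974). ENSDARG00000114264 was listed at 0 in both Cas13d mRNA libraries and at 1.82 and 8.31 TPM with rfp guides (adjusted p = 0.0188), and was not called with no filter (0.167), without library 2 of the rfp guides (0.148) or without library 2 of Cas13d mRNA (0.141).

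With nanog guides, 5 U1 profiles and 1 U2 profile were called higher than with Cas13d mRNA and 0 lower, against 4.07% of all rows called, 1.95% higher and 2.12% lower. Median log2 fold changes were 0.67 for U1 and 0.43 for U2, beside -0.05 over all rows. In either direction, 20 of 67 U1 and 3 of 7 U2 profiles had an unadjusted limma p under 0.05, against 25.3% of all rows. The count was 0 with no filter on low values, where 266 of all rows were called against 621 with the filter. It was 19 when only the compared groups were fitted, with 626 of all rows called. Of those 19 profiles, 4 were among the 6 called here.

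The called U2 profile was the pair of identical rows, at 321.5 and 163 TPM against 112 and 53.6 TPM. The log2 fold change was 1.55 (SE 0.35, limma adjusted p = 0.0177), and the call was lost without library 1 of the nanog guides (adjusted p = 0.105), without library 2 of Cas13d mRNA (0.193) and with no filter (0.171). The U1 rows ENSDARG00000113020 and ENSDARG00000115874, identical to each other, were at 28.8 and 23.0 TPM against 8.65 and 9.56 TPM. That rise of 1.40 (SE 0.27, limma adjusted p = 0.00722) was lost with no filter (0.0881). ENSDARG00000116816 held the same values in the compared libraries but was not called. It differed from ENSDARG00000113020 only in library 1 of the rfp guides, a group outside this comparison that enters the shared estimate of the spread. ENSDARG00000110759 was at 3.57 and 6.95 TPM against 0.75 and 1.36 TPM, a rise of 1.57 (SE 0.38, adjusted p = 0.0254) lost with no filter (0.177), without library 2 of the nanog guides (0.0879), and without library 1 (0.126) or 2 (0.0735) of Cas13d mRNA. ENSDARG00000114264, listed at 0 in both controls, was at 2.84 and 6.21 TPM (adjusted p = 0.0182) and lost its call under the same settings (0.176, 0.0762, 0.0654 and 0.0938).

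The U1 rows ENSDARG00000110665 and ENSDARG00000115069 carried the same value in most libraries, and their calls depend on which of them held it. They were equal and above 0 in 17 libraries and both at 0 in 3. In the remaining 4, the 2 uninjected and the 2 rfp-guide libraries, ENSDARG00000110665 was listed at 0 and ENSDARG00000115069 was not. ENSDARG00000110665 was at 0 and 0 TPM in uninjected embryos, 3.61 and 5.24 TPM with Cas13d mRNA, and 0 and 0 TPM with rfp guides. ENSDARG00000115069 was at 9.10 and 10.04 TPM, 3.61 and 5.24 TPM, and 24.7 and 21.7 TPM in the same groups. The former was the one U1 profile called lower with rfp guides (limma adjusted p = 0.00123, called in all 10 other settings), while the latter was among the profiles called higher.

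ENSDARG00000110665 was also the one call in the comparison of Cas13d mRNA with uninjected embryos (limma adjusted p = 0.00800), where 1 of 15253 rows was called, or 0.00656%. Of the tested profiles, 10 of 67 U1 and 1 of 7 U2 had an unadjusted p under 0.05, against 13.4% of all rows, and the medians were -0.07 for U1 and 0.38 for U2, beside 0.09 over all rows. The leading U2 row ENSDARG00000082734 was at 397 and 563 TPM in uninjected embryos and 662 and 548 TPM with Cas13d mRNA, which overlapped. The call of ENSDARG00000110665 was lost with no filter (adjusted p = 0.102), with median-of-ratios scaling (0.0660), when only the compared groups were fitted (0.0721), without library 2 of Cas13d mRNA (0.0575) and without library 2 of uninjected embryos (0.0506). Summed over both rows, the level was 9.10 and 10.04 TPM in uninjected embryos, 7.22 and 10.5 TPM with Cas13d mRNA and 24.7 and 21.7 TPM with rfp guides, so that uninjected and Cas13d mRNA embryos overlapped and rfp guides lay above both. In the nanog comparison both rows were at 10.9 and 10.1 TPM against 3.61 and 5.24 TPM and both were called (log2 fold change 1.10, adjusted p = 0.0256 and 0.0211). Those calls were lost without library 1 of the nanog guides (0.0553 and 0.0508), without library 1 (0.153 and 0.138) or 2 (0.0645 and 0.0507) of Cas13d mRNA, with no filter (0.120 and 0.119) and when only the compared groups were fitted (0.0967 for both), and for ENSDARG00000110665 with a pseudocount of 0.1 (0.0578). The rows were set side by side after their values were seen, and the sum was not tested.

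**Figure D4:**
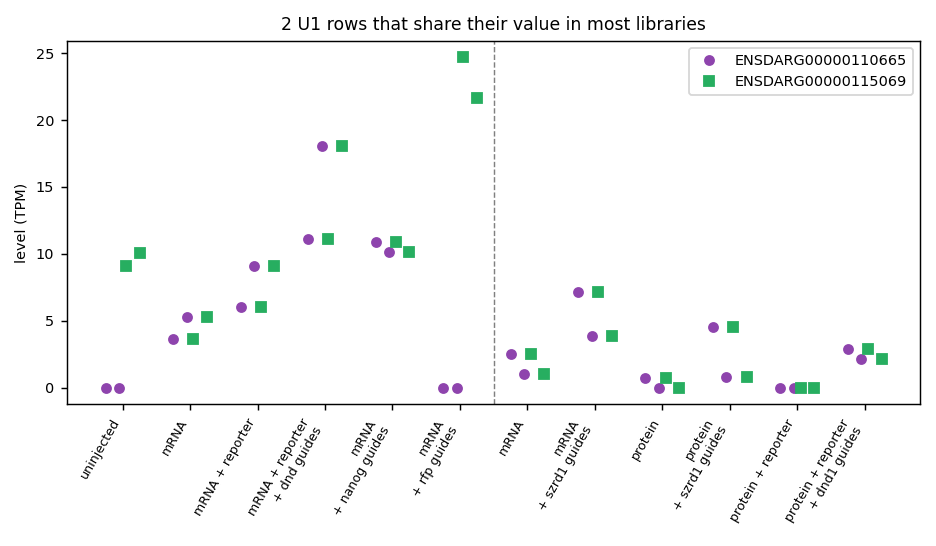
Level in TPM of the U1 rows ENSDARG00000110665 (circles) and ENSDARG00000115069 (squares) in each library, by group, with the sets separated by a dashed line. The symbols sit at the same height in 20 libraries, 3 of them at 0, and separate in the 2 uninjected libraries (0 and 0 against 9.10 and 10.04) and the 2 rfp-guide libraries (0 and 0 against 24.7 and 21.7).

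Such near-identical rows were common among U1 loci. Of the 117 U1 profiles, 24 belonged to 15 pairs that shared a value above 0 in at least 6 libraries without being identical throughout, and 11 of these pairs differed only in libraries where one row was listed at 0. ENSDARG00000113020 and ENSDARG00000116816 agreed in 23 of 24 libraries and differed in library 1 of the rfp guides, at 43.2 and 9.13 TPM. Among U2 profiles 1 pair of this kind was found, ENSDARG00000082321 and ENSDARG00000117035, equal and above 0 in 6 libraries. Where copies are alike, the value of a single row is uncertain, since how their reads were divided is not stated. Over the tested U1 and U2 profiles, the median difference between the replicates of a group was 0.450 to 0.942 on the log2(TPM + 1) scale, against 0.108 to 0.502 over all tested rows.

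Adding the reporter to Cas13d mRNA gave no call among U1 or U2 profiles, nor did dnd guides on top of the reporter. In the reporter comparison 0.839% of all rows were called by limma, 0.642% higher and 0.197% lower, and 6 of 67 U1 and 2 of 7 U2 profiles had an unadjusted p under 0.05, against 17.5% of all rows. The median log2 fold change was -0.37 for U1 and 0.20 for U2, beside 0.13 over all rows. In the dnd comparison 0.0262% of all rows were called, 0.0197% higher and 0.00656% lower, and 13 of 67 U1 and 3 of 7 U2 profiles had an unadjusted p under 0.05, against 3.11% of all rows, with medians of 0.43 and 0.56 beside 0.00 over all rows. The oocyte transcripts summed to 743 to 884 TPM with Cas13d mRNA, 1182 to 1315 TPM with the reporter and 1642 to 1725 TPM with dnd guides added, without overlap, and their part was not tested. Nanog made up 324 and 253, 592 and 623, and 1003 and 988 TPM of these sums. The median log2 fold change over the 12 transcripts was 0.47 for the reporter and 0.16 for dnd guides. A count of 1 was reached for the reporter without its library 1. For dnd guides the same count was reached without library 2 of those guides, without library 1 of the reporter, or with only the compared groups fitted. The leading U2 row ENSDARG00000082734 was at 682 and 783 TPM with the reporter and 791 and 947 TPM with dnd guides added. U1 ENSDARG00000115441 was at 19.7 and 25.4 TPM and at 24.7 and 38.3 TPM in these groups, which overlapped.

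In the second set, Cas13d protein alone differed most from Cas13d mRNA. Here 10 U1 profiles, 8 of them distinct within the set, and 1 U2 profile were called lower and 0 were called higher, while 21.9% of all 14716 rows were called, 11.1% higher and 10.8% lower. The median log2 fold change was -1.23 over the 22 tested U1 profiles and -1.11 over the 5 U2 profiles, beside 0.06 over all rows. Lower values were seen for 19 of 22 U1 and 4 of 5 U2 profiles, while 53.6% of all rows were higher. In either direction, 10 of 22 U1 and 1 of 5 U2 profiles had an unadjusted limma p under 0.05, a smaller share than the 61% of all rows. With a minimum mean of 5 TPM, where few U1 rows are tested, 1 profile was called, beside 1987 of all rows. Fewer profiles than here were called without library 1 of Cas13d mRNA, while calls over all rows did not fall.

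U2 ENSDARG00000082734 was at 9.35 and 17.4 TPM with Cas13d protein and at 121 and 136 TPM with Cas13d mRNA. The libraries were far from overlapping, and the log2 fold change was -3.23 (SE 0.23, limma adjusted p = 3.51e-06), called in all 10 other settings. The U1 row ENSDARG00000101237 was listed at 0 in both protein libraries and at 5.89 and 4.16 TPM with mRNA (adjusted p = 0.00235, called in all 9 other settings that tested it). ENSDARG00000113979 was also listed at 0 with protein, against 10.3 and 1.2 TPM (adjusted p = 0.00970). It lost its call with no filter (0.0586), and its value was equal to that of ENSDARG00000109822 in these 4 libraries. Among the leading U1 rows, which did not pass, ENSDARG00000115441 was at 7.2 and 0.25 TPM with protein against 12.1 and 7.2 TPM, and ENSDARG00000110891 at 2.40 and 1.11 TPM against 3.76 and 7.2 TPM. The remaining leading U1 row, ENSDARG00000103784, overlapped between the groups and was not lower with protein on the log2(TPM + 1) scale.

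Markers of developmental stage differed between the same libraries. The 12 maternal oocyte transcripts summed to 128 to 139 TPM with Cas13d protein and 429 to 434 TPM with Cas13d mRNA, and 9 of the 10 tested were called lower, none of the 12 being at 0 in a whole group. Of 15 tested gastrula genes 5 were called higher and 3 lower, and their sums were 2596 to 2609 TPM against 2476 to 2740 TPM. Over all rows in this comparison 11.1% were called higher and 10.8% lower. Summed U4 was 3.22 and 1.50 TPM with protein against 10.1 and 9.72 TPM, and summed 5.8S rows 28.0 and 22.1 TPM against 58.5 and 130 TPM. Not all short RNAs were lower: U6 rows (RF00026) summed to 5.77 and 7.56 TPM with protein and were listed at 0 with mRNA. The 5S ribosomal RNA rows (RF00001) summed to 105 and 84.1 TPM with protein against 67.8 and 100.02 TPM, which overlapped, as did all Rfam-named rows other than U1 and U2 (965 and 1211 against 1100.1 and 1366.5 TPM). Their part in the low U1 and U2 levels of Cas13d protein embryos was not tested.

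When szrd1 guides were added to Cas13d protein, 2 U1 profiles and 1 U2 profile were called higher and 0 lower, against 2.93% of all rows called, 2.55% higher and 0.381% lower. The median log2 fold change was 1.20 for U1 and 0.50 for U2, beside 0.01 over all rows. U2 ENSDARG00000082734 was at 138 and 120.1 TPM with the guides and at 9.35 and 17.4 TPM without them. It rose by 3.23 (SE 0.23, limma adjusted p = 4.98e-05), in all 10 other settings too, beside 121 and 136 TPM with Cas13d mRNA alone. The U1 row ENSDARG00000113194 was at 11.7 and 6.61 TPM against 0.48 and 0 TPM, a log2 fold change of 3.01 (SE 0.50, adjusted p = 0.00486) that was lost without library 2 of Cas13d protein (0.0521). A U1 profile shared by 3 rows, ENSDARG00000083063 among them, was at 3.00 and 1.74 TPM against 0 and 0.37 TPM. It was called (1.50, SE 0.34, adjusted p = 0.0196), but not without library 1 of the szrd1 guides (0.125), library 1 (0.129) or library 2 (0.0602) of Cas13d protein, or with no filter (0.0839). The count over both families was 5 without library 2 of the szrd1 guides and 1 without library 2 of Cas13d protein. Here too the oocyte transcripts were higher, at 227 to 245 TPM against 128 to 139 TPM, and their part was not tested. Nanog made up 49.9 and 62.8 TPM of that sum with guides and 8.93 and 7.25 TPM without. Summed U4 was also higher, at 21.1 and 17.8 TPM against 3.22 and 1.50 TPM. So were RNase P RNA (7.68 and 7.30 against 1.04 and 0.43 TPM) and 5.8S rows (113 and 83.5 against 28.0 and 22.1 TPM). U6 rows were at 0 with guides against 5.77 and 7.56 TPM. The 5S rows overlapped (121 and 95.8 against 105 and 84.1 TPM), as did all Rfam-named rows other than U1 and U2. The part of these RNAs was not tested.

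With szrd1 guides on Cas13d mRNA, 1 U1 and 1 U2 profile were called higher and 1 U1 profile lower, against 0.924% of all rows called, 0.537% higher and 0.387% lower. The median log2 fold change was 0.35 for U1 and 0.00 for U2, beside 0.05 over all rows. All 3 called profiles were at 0 in one of the groups. U1 ENSDARG00000113194 was listed at 0 in both controls and at 5.39 and 6.85 TPM with guides (limma adjusted p = 0.0144). U2 ENSDARG00000115204 was listed at 0 in both controls and at 9.46 and 3.00 TPM with guides (adjusted p = 0.00880). These guide libraries alone lift its mean past the minimum of 1 TPM, so it was tested through the group where it was high. It was not called without library 1 of the szrd1 guides. U1 ENSDARG00000101237 was at 5.89 and 4.16 TPM in the controls and listed at 0 with guides (adjusted p = 0.0253). The count was 0 with no filter, with a minimum of 5 TPM and with only the compared groups fitted. Over all rows, 74, 85 and 0 were called under those settings, against 136 here. The count of profiles also fell without library 1 of Cas13d mRNA, though calls over all rows did not. ENSDARG00000113194 was lost without either control library (0.0529 and 0.0718), and ENSDARG00000101237 without any one of the 4 libraries (0.0647 to 0.0949). U2 ENSDARG00000082734 was at 202 and 263 TPM with guides and 121 and 136 TPM without, and did not pass. The oocyte transcripts summed to 715 to 752 TPM with these guides against 429 to 434 TPM, and their part was not tested. Nanog made up 434 and 395 TPM of that sum with guides and 154 and 153 TPM without.

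The effects of szrd1 guides on protein and on mRNA were also compared with each other. A test of the difference between the effects, added after the data were seen, gave 2.39 on the log2 scale for ENSDARG00000082734 (protein minus mRNA, SE 0.33, limma adjusted p = 0.00992). It was the only one of 27 U1 and U2 profiles called, against 1.04% of all rows. The call was lost with no filter (0.0607) and with only those groups fitted (0.0585).

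Between the libraries labelled protein with reporter, which showed no reporter signal in nanos3, and those of Cas13d protein alone, 1 U2 profile and no U1 profile was called higher and 0 lower, with 17.6% of all rows called, 8.28% higher and 9.28% lower, and 0 of the 22 U1 profiles had an unadjusted limma p under 0.05, against 56.7% of all rows. The U2 profile was ENSDARG00000082734, at 57.3 and 51.9 TPM against 9.35 and 17.4 TPM (log2 fold change 2.01, SE 0.23, adjusted p = 8.55e-05, called in all 10 other settings). The median log2 fold change was 0.24 for U1 and 0.43 for U2, beside -0.06 over all rows. The count was 2 with a pseudocount of 0.1 and 3 without library 2 of protein with reporter. Oocyte transcripts summed to 285 to 296 TPM against 128 to 139 TPM with protein alone. Of 15 tested gastrula genes 1 was called higher and 5 lower. In the libraries labelled protein with reporter, otx2b was at 3.81 and 4.01 TPM against 94.1 and 95.0 TPM. There tbx6 was at 0.92 and 1.39 against 37.2 and 48.3 TPM, and tbxta at 781 and 768 against 304 and 280 TPM. The part of these transcripts was not tested.

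Between the libraries labelled protein, reporter and dnd1 guides and those labelled protein with reporter, 1 U2 profile and no U1 profile was called higher, against 0.408% of all rows called, 0.387% higher and 0.0204% lower. It was again ENSDARG00000082734, at 134 and 114 TPM against 57.3 and 51.9 TPM. The rise of 1.17 (SE 0.23, limma adjusted p = 0.0476) was just past the threshold. It was not called with a pseudocount of 0.1 (0.0573), no filter (0.192), median-of-ratios scaling (0.0759) or without any one of the 4 libraries (protein, reporter and dnd1 guides 1 and 2, 0.299 and 0.205; protein and reporter 1 and 2, 0.251 and 0.272). Of the 22 U1 profiles, 7 had an unadjusted p under 0.05, against 12.5% of all rows, and the count over both families was 4 with only the compared groups fitted. The medians were 0.43 for U1 and 0.32 for U2, beside 0.06 over all rows. The oocyte transcripts summed to 461 to 492 TPM with the guides and 285 to 296 TPM without. Nanog made up 207 and 183 TPM of that sum with the guides and 52.8 and 58.1 TPM without.

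**Figure D5:**
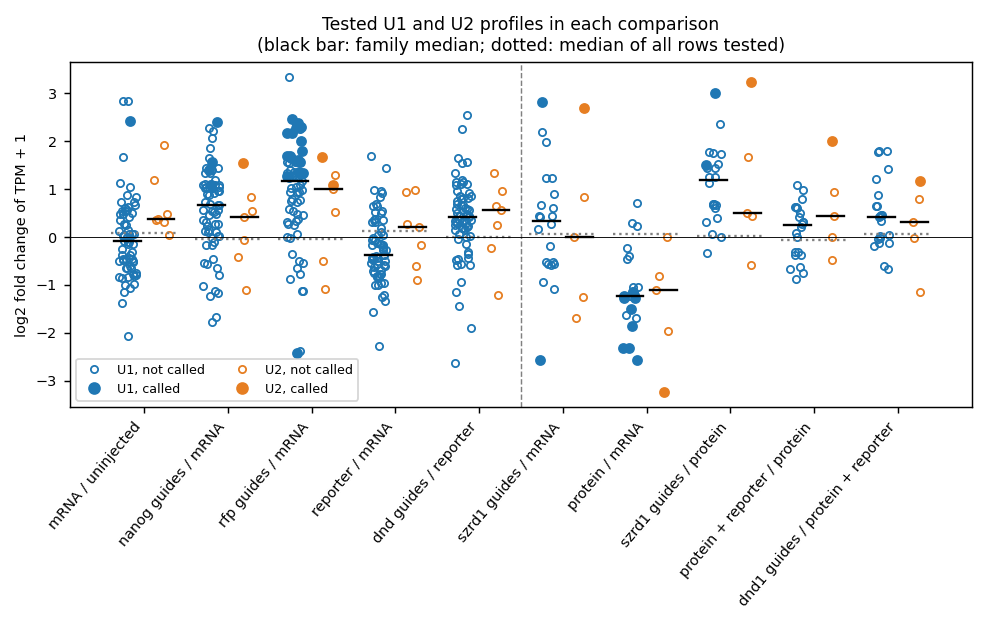
Log2 fold change of TPM + 1 for each tested U1 (blue) and U2 (orange) profile in the 10 comparisons, with called profiles filled, a black bar at the family median and a dotted line at the median of all rows tested. The U1 median lies furthest above 0 for szrd1 guides on protein (1.20) and rfp guides (1.17) and furthest below it for protein against mRNA (-1.23).

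Transcripts of proteins that assemble on U1 and U2, or assist them, were measured in the same libraries. The 3 U1 snRNP proteins (snrnp70, snrpa and snrpc) had 0 calls by limma in all 10 comparisons. The same held for 11 tested genes of the SMN complex and for the 15 genes listed for the U2 snRNP. This last list holds sf3b1, which holds the branch point, and the auxiliary factor u2af1, which reads the 3′ splice site. Over those comparisons 8 of 30 U1 snRNP tests, 37 of 150 U2 snRNP tests and 24 of 110 SMN tests had an unadjusted p under 0.05, near the 26.8% of all row tests. An adjusted p under 0.05 with a smaller fold change than a call needs was found in 4, 17 and 11 of them. The pooled share hides differences between comparisons. With rfp guides an unadjusted limma p under 0.05 was found for 2 of 3 U1 snRNP, 11 of 15 U2 snRNP and 3 of 11 SMN genes, against 32.6% of all rows. With nanog guides it was found for 2, 5 and 3 of them, against 25.3%. Higher values were seen for 0, 1 and 7 of these genes with rfp guides and for 0, 0 and 4 with nanog guides. The U1 snRNP proteins summed to 1456 to 2746 TPM over the 24 libraries. Their medians were -0.37 with nanog guides, -0.56 with rfp guides and -0.09 with protein against mRNA, beside -0.05, -0.05 and 0.06 over all rows. For the genes listed for the U2 snRNP the medians were -0.33, -0.45 and -0.06.

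Of 8 Sm core proteins 1 was called in each of 2 comparisons, those of protein with mRNA and of the libraries labelled protein with reporter with protein alone, below the 21.9% and 17.6% of all rows called there. It was snrpd3, a member of the Sm ring. Snrpd3 was at 470 and 437 TPM with Cas13d protein against 1121 and 1066 TPM with mRNA (log2 fold change -1.27, SE 0.07, limma adjusted p = 5.92e-07) and at 993 and 1067 TPM in the libraries labelled protein with reporter (1.18, SE 0.07, adjusted p = 1.44e-06), in all 10 other settings of each. Of 26 tested genes for snRNA transcription and 3′ end cutting, 3 were called higher and 1 lower with protein against mRNA, a share of called genes no larger than the 21.9% of all rows (11.1% higher, 10.8% lower). The Integrator subunits ints8 (21.6 and 21.3 against 6.70 and 7.02 TPM, adjusted p = 5.89e-06) and ints4 (13.6 and 14.6 against 6.01 and 4.42 TPM, adjusted p = 7.87e-05) were higher. So was snapc3, of the complex that binds snRNA promoters (23.7 and 19.1 against 10.3 and 8.35 TPM, adjusted p = 0.000818), although its size fell just under the minimum without library 1 of protein (0.97) or library 2 of mRNA (0.98). The SNAPc subunit snapc1a was lower, at 0.17 and 0.16 TPM against 2.13 and 1.92 TPM (adjusted p = 0.00241).

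Of 8 tested genes for cap, export and import of snRNAs, 1 was called with protein against mRNA and 1 in the comparison of the libraries labelled protein with reporter, which is below the share of all rows called (21.9% and 17.6%). It was larp7, lower with protein (29.8 and 26.7 against 92.2 and 74.7 TPM, limma adjusted p = 1.16e-05) and higher in the libraries labelled protein with reporter than with protein alone (93.7 and 99.3 TPM, adjusted p = 6.54e-06). In mammals larp7 binds 7SK RNA and guides the modification of U6. In those libraries ints8 was called lower than with protein alone, at 7.51 and 6.58 TPM (adjusted p = 8.81e-06). With szrd1 guides on protein, where 2.55% of all rows were called higher, snapc1a was at 1.81 and 0.94 TPM against 0.17 and 0.16 TPM and just passed (adjusted p = 0.0482). It did not without library 1 of the szrd1 guides (0.248) or library 1 (0.169) or 2 (0.193) of protein, nor with no filter (0.140) or with scaling, where its size was 0.97. With rfp guides, where 2.16% of all rows were called higher and 3.83% lower, the elongation factor ell was at 26.3 and 29.8 TPM against 15.2 and 11.7 TPM (adjusted p = 0.0164), and the exportin xpo1a at 49.5 and 52.2 TPM against 87.5 and 132 TPM (adjusted p = 0.0312). Neither was called without library 2 of the rfp guides (0.115 and 0.125), without library 2 of Cas13d mRNA (0.192 and 0.287) or with no filter (0.111 and 0.199), and xpo1a was also lost without library 1 of the rfp guides (0.107).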

How the data were processed

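RNA from zebrafish embryos was extracted with Trizol, and stranded poly(A) libraries were sequenced as single reads of 75 bp, per the labels' protocols. The authors deposited 1 table of TPM values with 2 decimals, titled as RSEM TPM. The submitters' processing notes name bcl2fastq 2.18, STAR 2.6.1c, RSEM and the build danRer11, and the strand setting and the treatment of reads that match several copies are not given in the sources used here. TPM keeps no depth, so no counting interval is given. All 24 columns were assigned by their titles. No sequence of these loci was used here, and none of the coordinates of another assembly.

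Each set of 12 libraries was fitted apart with limma 3.58.1 in R 4.3.3 on log2(TPM + 1), with a term per group, 6 residual degrees of freedom, a trended eBayes and two-sided tests, over all rows averaging at least 1 TPM. Fold changes on this scale understate changes of low rows. Rows identical in all 24 libraries count once. The text names the 3 leading profiles of each family and the called profiles, of which the 3 that rose and the 3 that fell most where over 10 were called, and, from 10 lists, the called genes (2 in each direction where over 4 were called), printed for the snRNA lists. Members, lists and rule were chosen with earlier results of these data known. Alternatives were a pseudocount of 0.1, no filter or a minimum of 5 TPM, median-of-ratios scaling, only the compared groups, the replicate number as block, each library left out, and for the sums distinct profiles only. The 5 repeat-like loci were taken from earlier results of these data.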

Additional observations from a re-analysis of the deposited data

Results flagged for a closer look

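The effect of szrd1 guides on the leading U2 row ENSDARG00000082734 differed between Cas13d protein and Cas13d mRNA, by 2.39 on the log2(TPM + 1) scale (limma interaction test, SE 0.33, adjusted p = 0.00992). With protein the row went from 9.35 and 17.4 TPM to 138 and 120.1 TPM, and with mRNA from 121 and 136 TPM to 202 and 263 TPM, so that all 4 libraries with guides were above their controls. Its adjusted p was 0.0607 with no filter on low values and 0.0585 with only the 4 groups fitted, and it remained called in the other 4 settings and in the 8 fits that each left out a library. The summed maternal oocyte transcripts, which include nanog, were 1.77 times as high with guides on protein (227 to 245 against 128 to 139 TPM). On mRNA they were 1.70 times as high (715 to 752 against 429 to 434 TPM). Nanog alone went from 8.93 and 7.25 to 49.9 and 62.8 TPM on protein, and from 154 and 153 to 434 and 395 TPM on mRNA. Over the 10 tested transcripts of the list the median log2 fold change was 1.10 on protein and 0.31 on mRNA.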

How the results depend on the processing

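The 40 alternative values of the summed U1 and U2 ratios stayed within the spread between replicates. With 2 libraries a group, leaving 1 out gives the other's value, so those 80 values say nothing of stability, and the log2 ratio of summed U1 then ranged from -0.44 to 0.18 for Cas13d mRNA against uninjected embryos. Several counts of called profiles changed with the setting, and the cause was not tested except where fewer rows were tested.

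With a pseudocount of 0.1 the count was 5 instead of 3 for szrd1 guides on protein, 2 instead of 1 for reporter on protein and 0 instead of 1 for dnd1 guides. Over all rows, 647, 3377 and 71 were called there, against 431, 2583 and 60 in the reported fits. With no filter on low values it was 0 for Cas13d mRNA against uninjected (reported 1), 0 for nanog guides (6), 1 for rfp guides (20), 0 for szrd1 guides on mRNA (3) and 0 for dnd1 guides (1). In the same order, calls over all rows were 2 (reported 1), 266 (621), 23 (913), 74 (136) and 34 (60). With a minimum of 5 TPM it was 2 for Cas13d mRNA against uninjected, 0 for szrd1 guides on mRNA, 1 for protein against mRNA (11) and 1 for szrd1 guides on protein. Calls over all rows were then 7 (reported 1), 85 (136), 1987 (3228) and 312 (431). Median-of-ratios scaling gave 0 for Cas13d mRNA against uninjected and 0 for dnd1 guides, and moved the median of all rows from 0.13 to -0.0047 in the reporter comparison. Fits of only the compared groups gave 19 for nanog guides, 1 for dnd guides (0), 0 for szrd1 guides on mRNA and 4 for dnd1 guides. They gave 626 (reported 621), 11 (4), 0 (136) and 96 (60) calls over all rows. A like count need not hold the same profiles. In those fits 4 of the 19 for nanog guides were among the reported 6. For Cas13d mRNA against uninjected the count stayed at 1, with 0 shared.

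With a library left out, which leaves 1 library in an arm and assumes that it varies like the others, counts ranged from 0 to 1 for Cas13d mRNA against uninjected, 1 to 9 for nanog guides, 5 to 25 for rfp guides, 0 to 1 for the reporter and for dnd guides, 1 to 3 for szrd1 guides on mRNA, 7 to 9 for protein against mRNA, 1 to 5 for szrd1 guides on protein, 1 to 3 for reporter on protein and 0 to 0 for dnd1 guides.

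Replicate numbers did not pair the samples by any label, and correlations of same-numbered deviations ran from -0.20 to 0.15. With the replicate number as a block, the count was 5 for szrd1 guides on protein and 0 for dnd1 guides (adjusted p of ENSDARG00000082734 0.0636), and within 1.5 times the reported count in the other 8 comparisons. With crossed numbers, an alternative chosen after seeing the data, the count was 1 for Cas13d mRNA against uninjected and 0 for the reporter. None of the 25 named profile calls or 12 named gene calls reversed.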
